A study of Mus musculus with 9 samples.

Results

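Fat cell transcripts were measured in brain RNA of control, model and HPYD mice, for 10 adipocyte genes listed by symbol: Ucp1, Cidea, Adipoq, Fabp4, Cfd, Plin1, Cidec, Car3, Retn and Lep. For each gene, the probe set with that single symbol and the highest mean was taken, which gave 9 of the 10 genes among the 19938 genes of the arrays. No probe set was matched to Cfd, so it has no value here. In RefSeq's GRCm38.p6 annotation Ucp1 lies at chr8:83290348-83298456, Adipoq at chr16:23146536-23157968, Fabp4 at chr3:10204342-10208616 and Car3 at chr3:14863538-14872381. The study hybridised brain RNA of APP/PS1 mice, a strain with mutant APP and presenilin transgenes that forms amyloid plaques, to GeneChip Mouse Gene 1.0 ST arrays, with 3 arrays per group. The control group was wild type C57/6J mice, the model group APP/PS1 transgenic mice on that background and the HPYD group such mice treated with HPYD, a β-sheet breaker peptide. The methods give 8 months as the age of the APP/PS1 mice as purchased, and the same age for the control mice. Each mouse received 5 μL per day through the nose for 30 days. This was saline in the control and model groups and HPYD at 33 mg/mL in saline in the HPYD group. Brains were taken after the dosing, at the end of a water maze test of learning and memory, so the mice were then older than 8 months. The promoter of the transgenes is not named in the sources used here. It is also not said that the arrays are of different mice, so that p-values describe the spread of these arrays alone, which may be partly technical. Arrays are named C1 to C3 for the control group, M1 to M3 for the model group and H1 to H3 for the HPYD group.

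White adipocytes store triglyceride in a single large lipid droplet and release hormones, whereas brown adipocytes burn fat for heat through the uncoupling protein UCP1 in their mitochondria. Their genes are switched on during differentiation by the nuclear receptor PPARγ and by C/EBP transcription factors. Brain parenchyma holds no adipocytes, but fat lies beside muscle, bone and skin of the head, and some adipocyte genes are also used by other cells, such as Fabp4 by macrophages and capillary endothelium and Car3 by muscle and liver. Ckm, the creatine kinase of skeletal muscle, was therefore read beside the adipocyte genes as a sign of muscle RNA.

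The arrays carried brain transcripts, with the synaptic gene Snap25 between 13.08 and 13.27 on the log2 scale in all 9 arrays. Other brain genes did not stay level: relative to the control mean, the synaptic gene Syt1 was at -0.57 in M2 and -0.55 in H3 and the astrocyte glutamate transporter gene Slc1a2 at -0.38 and -0.43 there, against -0.076 to 0.079 for both in M1, M3, H1 and H2. Gfap, the astrocyte filament gene, lay 1.16 above it in M1, 0.57 in M2, 0.95 in M3, 0.98 in H1, 1.38 in H2 and 0.16 in H3. M2 and H3 thus stood apart from the other arrays in Syt1 and Slc1a2. The myelin gene Mbp was 12.21 in M2 and 12.07 in H3, and 11.89 to 12.16 in the other arrays. Array medians lay between 6.69 and 6.82. The array H3 went against its label: Prnp, at 12.42 to 12.55 in the other APP/PS1 arrays, was 11.52 in H3 and 11.76 to 11.81 in the control group, and Xist, a transcript of female cells, was 5.22 in H3 and 5.20 to 5.69 in the control group, against 11.18 to 11.78 in the other APP/PS1 arrays. By Xist, H3 was not of the same mouse as H1 and H2. Sex and genotype thus cannot be told apart between the control and model groups. Results for the HPYD group are therefore also given without H3. The deposited table holds no detection call, so a low value cannot be told from background. The control means of Ucp1, Adipoq, Fabp4 and Lep lay at percentiles 17.5, 14.3, 13.8 and 10.9 of all genes, and those of Cidea, Plin1, Cidec, Car3 and Retn at 39.9, 37.7, 33.5, 32.3 and 35.9.

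Start regions of the adipocyte genes were read from RefSeq promoter windows of GRCm38.p6, which reach from 250 bases before to 50 bases after a transcription start, and 7 of the 10 genes had at least 1 window, 8 windows in all. Both strands were searched for TTGCNNAA, a form of the C/EBP binding motif, for AGGTCA, the core element bound by nuclear receptors such as PPARγ, and for TATAAA. TTGCNNAA was found in windows of 3 of the 7 genes (Lep, Plin1 and Cidec), against 10.8% of all 32851 windows, AGGTCA in 1 (Ucp1), against 16.3%, and TATAAA in 0, against 13.6%. A match describes letters in the window and does not show that a factor binds there. The stretches that hold these matches are shown because Ucp1, Plin1 and Cidec were high in M1 and M2 and Lep, which holds TTGCNNAA as Plin1 and Cidec do, was not. Ucp1 holds AGGTCA and not TTGCNNAA. A link between a match and the array pattern was not tested. A second Plin1 match, TTGCCTAA at -187 to -180 from the start, lies outside the stretch printed. Each is 100 bases on the gene's strand, with the match in capitals. The Lep stretch is chr6:29060121-29060220 on the plus strand, the Plin1 stretch chr7:79732777-79732876 on the minus strand, and the Ucp1 stretch chr8:83290248-83290347 on the plus strand, each ending 1 base before the transcription start of its window. RefSeq's span of Plin1 is chr7:79721164-79732904, so the Plin1 stretch lies inside that span and not before it. The Cidec stretch is chr6:113434883-113434982 on the minus strand, from 218 to 119 bases before 1 of its starts, and also lies inside the gene's span.

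Lep: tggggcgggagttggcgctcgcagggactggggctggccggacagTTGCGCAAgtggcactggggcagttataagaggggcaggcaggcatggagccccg

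Plin1: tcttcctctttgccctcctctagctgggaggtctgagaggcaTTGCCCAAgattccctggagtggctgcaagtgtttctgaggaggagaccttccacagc

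Cidec: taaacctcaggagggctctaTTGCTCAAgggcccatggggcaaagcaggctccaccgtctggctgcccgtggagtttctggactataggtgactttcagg

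Ucp1: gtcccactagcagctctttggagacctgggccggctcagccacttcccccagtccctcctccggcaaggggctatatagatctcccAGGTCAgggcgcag

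Most of the adipocyte genes stood high in M1 and M2 and some in H2, and they were near the control level in M3, H1 and H3. Of the 9 genes, 7 lay at least 1 log2 unit above the control mean in M1, 4 in M2 and 2 in H2. Over all genes, 1.19% did so in M1, 2.54% in M2 and 0.833% in H2. In M3, H1 and H3 the count was 0, against 0.130%, 0.171% and 1.33% of all genes. The median of the 9 differences from the control mean was 1.77 in M1, 0.99 in M2 and 0.43 in H2, against -0.052 in M3, -0.041 in H1 and 0.017 in H3. The groups were thus not uniform: 1 array of the model group held control levels, and 1 array of the HPYD group stood apart from the other two.

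Ucp1, the protein that lets brown fat mitochondria produce heat, had signals (log2) of 5.18, 5.14 and 4.9996 in the control group. It was 9.17 in M1, 6.12 in M2 and 5.21 in M3, and 4.78, 6.00 and 5.17 in H1, H2 and H3. The difference from the control mean (log2) was 4.07 in M1, 1.01 in M2 and 0.90 in H2, and no fold is given, since the control signal may be background. Cidea, a lipid droplet protein abundant in brown fat, was 6.87, 6.85 and 6.50 in the control group, 8.46, 7.26 and 6.57 in M1, M2 and M3, and 6.66, 6.94 and 7.11 in H1, H2 and H3. It stood out in M1 and less in M2, and H3 lay above H2.

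Adipoq, which encodes the hormone adiponectin, was 4.83, 4.84 and 4.82 in the control group. It was 7.21, 6.25 and 4.89 in M1, M2 and M3 and 4.89, 5.46 and 4.66 in H1, H2 and H3. The control arrays lay within 0.022 of each other, and M1, M2 and H2 were far above them. Retn, which encodes the hormone resistin, was 6.49, 6.35 and 6.50 in the control group, 6.71, 7.43 and 6.42 in M1, M2 and M3, and 6.15, 6.51 and 6.40 in the HPYD group. Unlike Ucp1 and Adipoq it was highest in M2. Lep, which encodes leptin, the satiety hormone of white fat, was 4.66, 4.58 and 4.33 in the control group, 4.67, 4.44 and 4.47 in M1, M2 and M3, and 4.41, 4.64 and 4.76 in the HPYD group. All 3 groups overlapped for Lep, and its range over the arrays was 0.43, larger than that of 56.4% of genes. The other 8 adipocyte genes had ranges of 1.28 to 5.59, each larger than that of at least 94.7% of genes.

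Fabp4, which carries fatty acids inside adipocytes, was 4.75, 4.87 and 4.74 in the control group. It was 8.41, 7.13 and 4.80 in M1, M2 and M3 and 4.79, 6.10 and 4.71 in H1, H2 and H3. M1 lay 3.63, M2 2.35 and H2 1.31 above the control mean on the log2 scale. The lipid droplet genes lay less far above the control mean in M1, M2 and H2 than Fabp4 did, but in the same order. Plin1, the perilipin that coats the droplet, was 6.59, 6.70 and 6.44 in the control group, 7.83, 7.15 and 6.39 in M1, M2 and M3 and 6.64, 6.75 and 6.65 in the HPYD group. Cidec, which fuses droplets into larger ones, was 6.34, 6.26 and 6.25 in the control group, 8.05, 7.01 and 6.19 in M1, M2 and M3 and 6.27, 6.71 and 6.30 in the HPYD group. For Plin1, H2 exceeded the highest control array by less than the control arrays differed among themselves, whereas for Cidec it lay clear of them.

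Car3, the carbonic anhydrase of fat and slow muscle, had the widest range of the 9 genes. It was 6.22, 6.01 and 6.36 in the control group, 11.35, 11.60 and 6.02 in M1, M2 and M3, and 6.15, 10.46 and 6.21 in H1, H2 and H3. The array values fell into high and low levels with nothing between: M1, M2 and H2 lay 5.15, 5.41 and 4.27 above the control mean on the log2 scale, and M3, H1 and H3 lay within the control range.

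**Figure D1:**
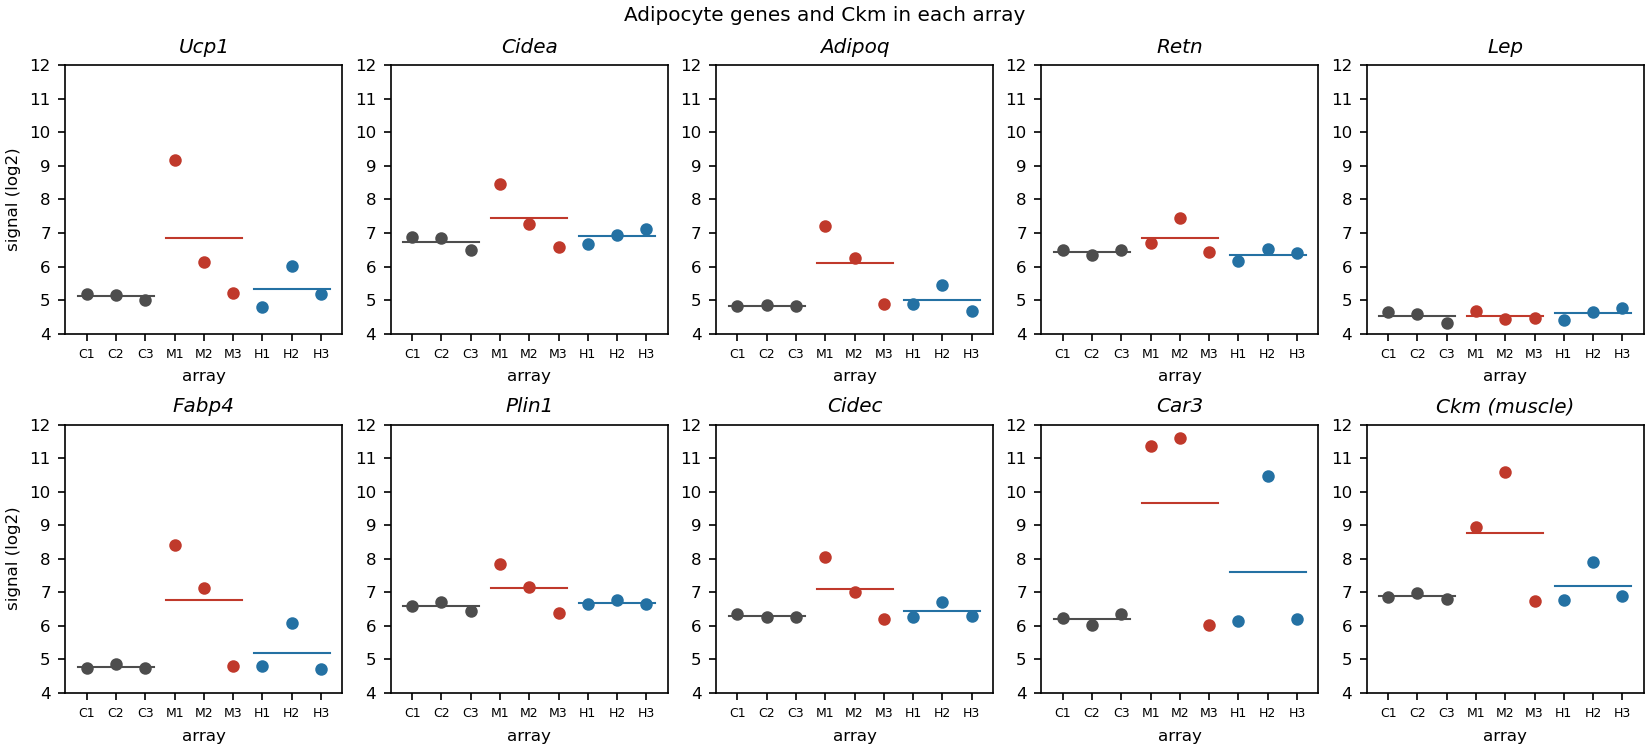
Signal (log2, vertical axis) of the 9 measured adipocyte genes and of the muscle gene Ckm for the control (C), model (M) and HPYD (H) arrays along the horizontal axis, with a point per array and a line at the mean of each group. Ucp1 reached 9.17 in M1 and 6.12 in M2, whereas Ckm was 8.94 in M1 and 10.59 in M2.

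Ckm was 6.84, 6.98 and 6.79 in the control group, 8.94, 10.59 and 6.74 in M1, M2 and M3, and 6.76, 7.90 and 6.88 in H1, H2 and H3. The same 3 arrays were high, but in another order, since Ckm was highest in M2. The difference of M1 from M2 (log2) was 3.05 for Ucp1, 1.28 for Fabp4, 1.20 for Cidea, 1.05 for Cidec, 0.95 for Adipoq, 0.67 for Plin1 and 0.22 for Lep, but -0.25 for Car3 and -0.73 for Retn. Ucp1 had the widest of these differences. Of 19 skeletal muscle genes, 0 were higher in M1 than in M2, and the median difference was -1.56, from -1.90 to -0.58, with Acta1 at -1.70 and Atp2a1 at -1.64. M1 and M2 are single arrays of 1 group, so these differences have no replicate check. The arrays fell into separate clusters by Ckm, and no correlation over the 9 arrays was computed with it.

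**Figure D2:**
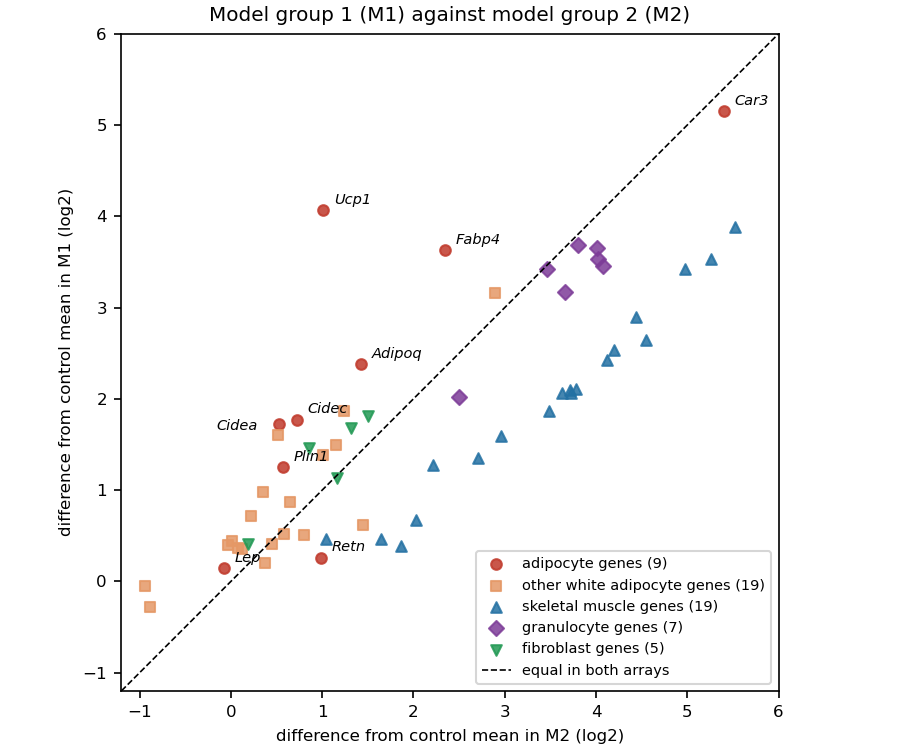
Difference from the control mean (log2) in M1 (vertical axis) against M2 (horizontal axis); each point is a gene, and the dashed line marks equal differences. The 19 skeletal muscle genes lay below the line, while Ucp1 (4.07 in M1, 1.01 in M2), Fabp4, Adipoq, Cidea, Cidec and Plin1 lay above it.

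Genes with the array pattern most like that of the adipocyte genes were Chad, Aqp7, Bgn, Ibsp and Tnc (Pearson's r of 0.977 to 0.981 with the mean of the 9 genes over 9 arrays, a description that rests on the high arrays). Chad and Ibsp encode proteins of cartilage and bone matrix, Bgn a matrix proteoglycan, Tnc the matrix protein tenascin C and Aqp7 the glycerol channel of adipocytes. Chad was 9.59, 8.17 and 7.84 in M1, M2 and H2 and at most 6.36 in the other arrays. Taken singly, Ucp1 was most like Acsm3 (r = 0.993), Adipoq and Fabp4 like Aqp7 (0.982 and 0.981), Plin1 like Adig (0.99), Cidec like Cytl1 (0.975) and Cidea like Trim65 (0.973), whose own range was 0.11. Retn was most like Uhrf1 (0.987). Car3 was most like Ear6, a ribonuclease of eosinophils (0.996), which was 8.99, 9.39 and 8.005 in M1, M2 and H2. The neighbours of Car3 thus differed from those of Adipoq and Fabp4.

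Genes of several other cell types were also high in M1, M2 and H2. Of all genes, 25.3%, 30.1% and 29.6% lay above all control arrays in M1, M2 and H2, and 19.1%, 20.6% and 39.6% in M3, H1 and H3. All 7 granulocyte genes did so in M1, M2 and H2, with median differences from the control mean of 3.46, 3.80 and 2.78, and the highest, Ngp, reached 12.33, 12.45 and 11.66. In M3 and H1 these genes lay below the control mean, with medians of -0.72 and -0.79. Ngp was 6.05 and 6.84 there, against 8.31 to 9.13 in the control group, so the control arrays are no baseline free of granulocyte signal. All 19 skeletal muscle genes lay above all control arrays in M1 and M2 and 17 in H2, with medians of 2.07, 3.72 and 0.68. The 5 fibroblast genes, led by the proteoglycan Dcn and the collagens Col1a1 and Col1a2, had medians of 1.46, 1.16 and 0.53, and of 0.30 in H3. Endothelial genes, of which Cldn5 and Flt1 had the highest signal, did not move with them, with list medians between -0.088 and 0.13 in all 9 arrays. Their part in the adipocyte result was not tested. In bulk RNA, fewer cells of a type and less RNA per cell cannot be told apart.

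Other genes of the white adipocyte showed smaller differences than the 9. Of 20 further genes, 19 were measured, and 17 lay above all control arrays in M1, 14 in M2 and 12 in H2, against 5 in M3, 5 in H1 and 9 in H3, where the counts in M3, H1 and H3 are near the shares of all genes given above. Their median differences were 0.52, 0.45 and 0.22 in M1, M2 and H2. Their control means lay at percentiles from 11.6 (Adig) to 91.4 (Dgat2) of all genes, and a small difference from a high control level does not show that fat RNA was absent. Agpat2, an enzyme of triglyceride synthesis, was 6.72, 6.98 and 6.70 in the control group, 8.29, 7.95 and 7.06 in M1, M2 and M3 and 6.88, 7.60 and 7.12 in the HPYD group. Here M3 also lay above the control arrays, by less than their own spread. The hormone-sensitive lipase gene Lipe was 7.99, 8.05 and 7.99 in the control group, 8.43, 8.46 and 8.08 in M1, M2 and M3 and 7.98, 8.09 and 8.07 in the HPYD group, so that it was high in M1 and M2 only. Gpd1, a dehydrogenase of glycerol 3-phosphate supply, and Thrsp, a regulator of fat synthesis, had model means 0.44 and 0.56 above the control means (standard errors 0.13 and 0.17). For both, H3 lay above H2, at 10.51 and 10.35 for Gpd1 and 8.39 and 8.04 for Thrsp. The group comparison of these 19 genes had a median of 0.39, with 17 higher and 2 lower means, and 0 passed limma's adjusted test. Named after their values were seen, the fatty acid transporter Cd36 was 8.20, 7.92 and 6.06 in M1, M2 and H2 against 4.62 to 5.31 in the control group, and Pparg and Cebpa, the regulators of fat cell differentiation, had model means only 0.13 and 0.25 above the control means (standard errors 0.14 and 0.13).

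Other genes of the brown adipocyte stayed nearer to the control level in M1 than Ucp1 did. Of 11 such genes, 10 were measured, and their median differences lay between -0.026 and 0.092 in all 9 arrays. Their control means lay at percentiles from 16.0 (Elovl3) to 90.7 (Ppargc1a) of all genes, against 17.5 for Ucp1. A small log2 difference from a high control level does not show that RNA of brown fat was absent. Prdm16, a regulator of brown fat fate, was 7.36, 7.70 and 7.40 in the control group, 7.48, 7.14 and 7.44 in M1, M2 and M3 and 7.40, 7.41 and 7.29 in the HPYD group, with overlap of all groups. Kcnk3, a potassium channel gene, was 9.44 in M2 and 9.30 in H3 and at most 8.83 in the other arrays. Of the 10 genes 3 were highest in M1. Among them, and named after their values were seen, the lipid elongase gene Elovl3 lay 0.34 above the control mean in M1, 0.031 in M2 and 0.12 in H2, and the ion channel gene Otop1 was at 0.32, -0.12 and 0.30. Both were higher in M1 and H2 than in M2, by far less than Ucp1 was in M1. Zic1 and Ebf2, transcription factors of brown fat precursors and also of brain regions, were high in M2 and H3 instead: Zic1 was 11.66 and 11.64 there and at most 10.32 elsewhere, and Ebf2 was 7.26 and 7.23 there and at most 6.24 elsewhere. Among the genes shared by brown fat and muscle, Cox8b, a respiratory chain subunit, was 9.93, 10.10 and 7.998 in M1, M2 and H2 and 6.05 to 7.29 in the other arrays, and Cox7a1 was 9.08, 9.46 and 7.99 against 7.42 to 7.98. Cox7a1 in H3, at 7.98, was close to H2. For both, M2 was higher than M1, the order of Ckm and not of Ucp1. The third gene measured, the fatty acid carrier gene Fabp3, was instead 0.048 above the control mean in M1 and at -0.17 in M2 and H2 and -0.74 in H3.

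**Figure D3:**
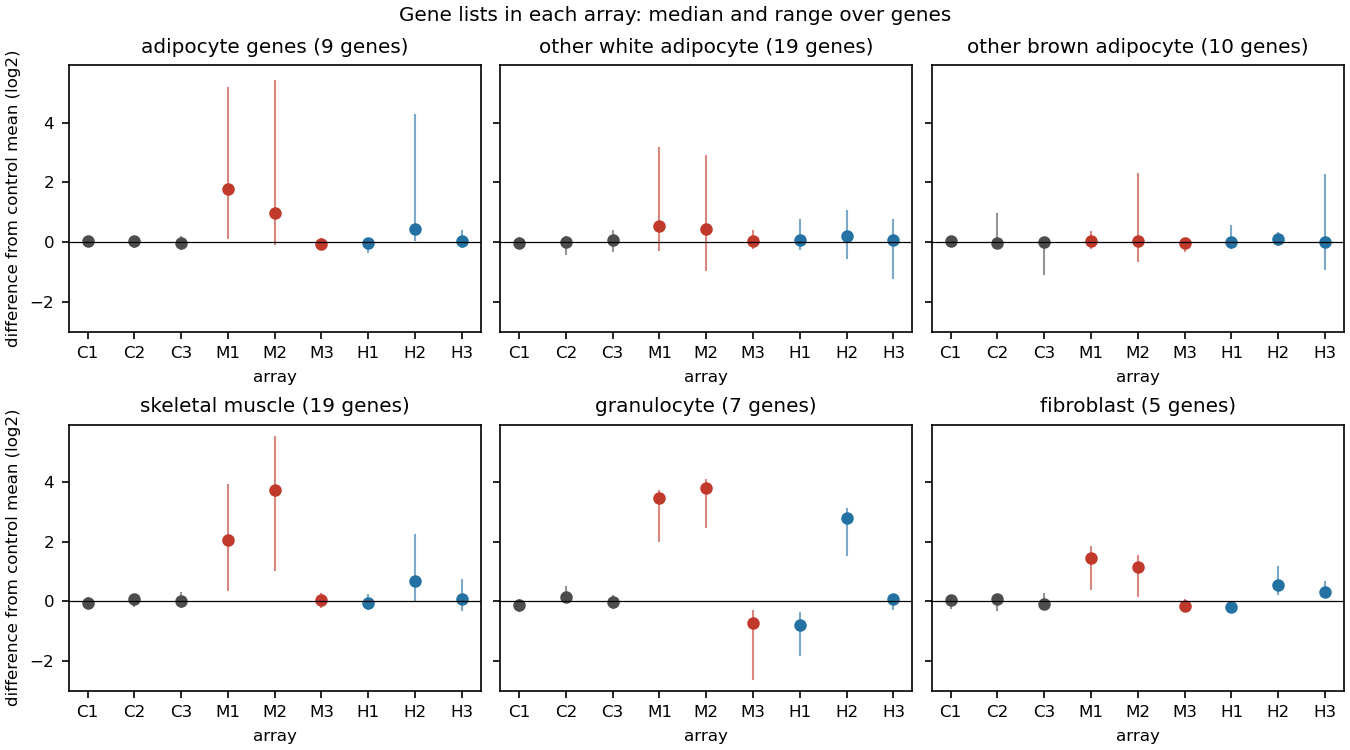
Difference from the control mean (log2, vertical axis) in each array (horizontal axis) for 6 gene lists; points are medians over the genes of a list and bars reach from the lowest to the highest gene. The adipocyte genes had medians of 1.77, 0.99 and 0.43 in M1, M2 and H2. Medians of the other brown adipocyte genes lay between -0.026 and 0.092 in all arrays. Their highest gene reached 2.28 in M2 and 2.26 in H3.

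To compare the model group with the control group, limma's moderated test was fitted over all 9 arrays and 19938 genes. For Adipoq the control mean was 4.83 ± 0.011 (SD, n = 3 arrays) and the model mean 6.11 ± 1.17, a log2 fold change of 1.29 (95% interval 0.13 to 2.44). Fabp4 was 4.78 ± 0.072 and 6.78 ± 1.83, a log2 fold change of 2.00 (0.14 to 3.86). Ucp1 was 5.11 ± 0.094 and 6.83 ± 2.07, with a log2 fold change of 1.73 (-0.29 to 3.75). Car3 was 6.20 ± 0.17 and 9.66 ± 3.15, with a log2 fold change of 3.46 (-0.28 to 7.20). The log2 fold changes of Cidec, Cidea, Plin1 and Retn were 0.80, 0.69, 0.55 and 0.41, with standard errors of 0.39, 0.41, 0.30 and 0.23, and that of Lep was 0.0066 (-0.27 to 0.28). The adjusted p from limma was 0.859 for each of them except Lep, at 0.999.

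The model mean was the higher one for all 9 genes, with a median log2 fold change of 0.80 against -0.012 over all genes, although Lep turned to -0.038 with the arrays shifted to one median. The 3 model arrays lay above all control arrays for 2 of the 9 genes, Ucp1 and Adipoq, against 4.83% of all genes. M3 exceeded the highest control array by only 0.035 for Ucp1 and 0.047 for Adipoq (exact two-sided permutation test, p = 0.1 for each, the smallest that 3 arrays against 3 allow). After adjustment 0 of the 9 genes passed, as did 0% of all genes, by limma, and 0 of the 9 passed by the group test that the methods name. At an unadjusted p under 0.05, limma gave 2 (Adipoq and Fabp4), against 4.92% of all genes, and the methods' test 0. Without M3, the model array with control levels, 8 of the 9 passed this unadjusted threshold, against 9.67% of all genes, and the median was 1.25. M3 is named for its low values of these same genes, so this count follows from the choice of array and is no support. Without M1 the median was 0.48, and without M1, M2 and H2, where M3 is the only model array, it was -0.052. These genes were high in M1, M2 and H2, so the value of -0.052 follows from the choice of arrays as well. With Ckm as a covariate the median was 0.30.

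**Figure D4:**
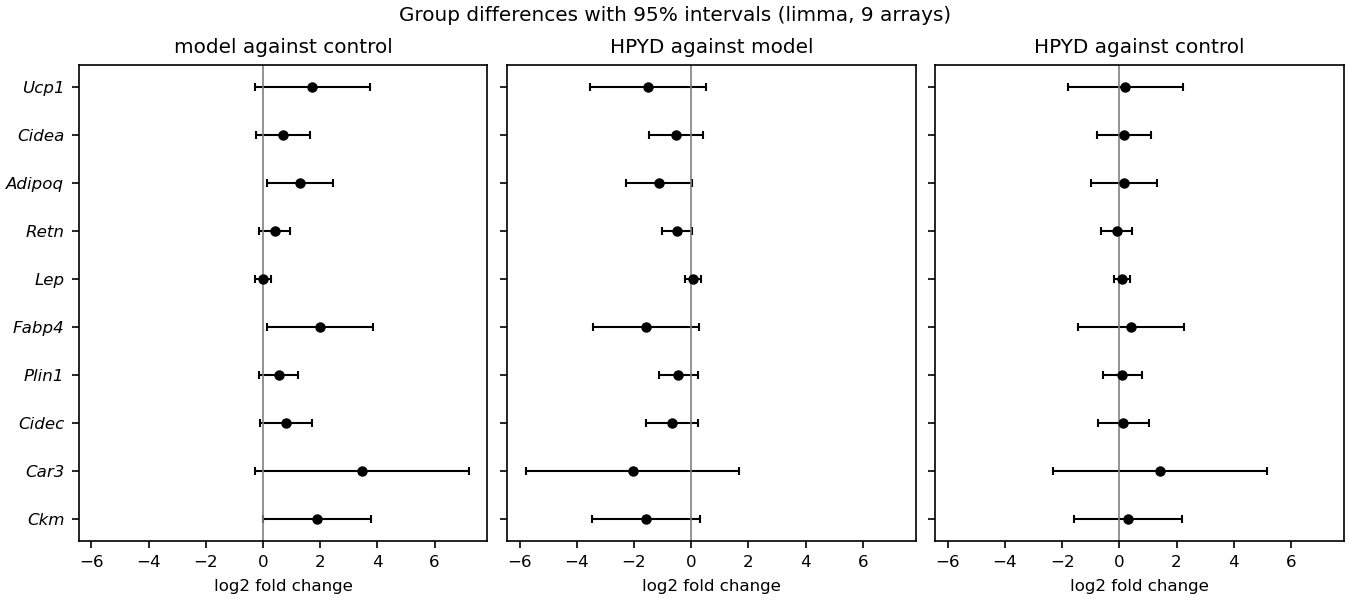
Log2 fold change (horizontal axis) of the 9 adipocyte genes and Ckm in the 3 comparisons of groups; points are limma estimates over 9 arrays and bars are 95% intervals. For model against control the intervals of Adipoq and Fabp4 began at 0.13 and 0.14, and those of the other adipocyte genes held 0.

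For HPYD against model, which asks whether the peptide changed expression in APP/PS1 mice, 8 of the 9 genes had a lower mean in the HPYD group, with a median log2 fold change of -0.66 against 0.016 over all genes. Both comparisons share the model arrays. Ucp1 was 5.32 ± 0.62 (SD, n = 3 arrays) in the HPYD group, Adipoq 5.003 ± 0.41, Fabp4 5.20 ± 0.78 and Car3 7.61 ± 2.47. Their log2 fold changes were -1.52, -1.11, -1.58 and -2.05, with standard errors of 0.88, 0.50, 0.81 and 1.62, and limma's adjusted p was 1 for each. The HPYD arrays lay below all model arrays for 0 of the 9 genes, against 0.983% of all genes. After adjustment 0 passed, against 0% of all genes, and at an unadjusted p under 0.05 0 passed by limma, against 1.97% of all genes, and 0 by the methods' test. Without M3 8 of the 9 passed the unadjusted threshold, against 4.14% of all genes, with a median of -1.10. Here too the count follows from the choice of M3 and is no support. The median was -0.35 without M1, -0.63 without H3, -0.20 with Ckm as a covariate and 0.092 without M1, M2 and H2. The value of 0.092 follows from leaving out the arrays in which these genes were high.

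For HPYD against control, the HPYD mean was higher for 8 of the 9 genes, with a median log2 fold change of 0.16 against 0.012 over all genes. The largest log2 fold change was that of Car3, at 1.41 (standard error 1.62), followed by Fabp4 at 0.42 (standard error 0.81), and limma's adjusted p lay between 0.865 and 0.961 for the 9 genes. The HPYD arrays lay above all control arrays for 0 of the 9, against 4.78% of all genes. This count includes H3, the array that went against its label. For Adipoq, H1 (4.89) and H2 (5.46) lay above the control arrays (at most 4.84), and H3 (4.66) did not. For the other genes H1 did not lie above all control arrays either. The share of all genes without H3 was not computed. By limma 0 passed after adjustment, against 0% of all genes, and 0 at an unadjusted p under 0.05, against 3.24% of all genes, as did 0 by the methods' test. Without H2 the median and Car3 were both at -0.012. Without H3 the median was 0.21.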

How the data were processed

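Brain RNA of 9 samples was hybridised to GeneChip Mouse Gene 1.0 ST arrays. The authors deposited 1 log2 value for each of 35556 probe sets and array, between 2.37 and 14.01. MAS5 is the tool that the submitters' processing notes list, with background correction and normalization not given in the sources used here. Groups came from the sample titles. A single symbol of the platform table was given for 21789 probe sets, several for 1621 and none for 12146. Each gene kept its probe set of highest mean, which for each of the 9 measured adipocyte genes was the single one.

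The deposited values were fitted as they are with limma 3.58.1 in R 4.3.3, with the 3 groups as means, no covariate, and 6 residual and 2.13 prior degrees of freedom. P-values were adjusted by Benjamini-Hochberg over 19938 genes, with 0.05 as threshold, and the fit was tested on simulated data. Differences from the control mean were computed per array. The genes and lists were chosen with earlier results of these data known. Named were all adipocyte genes, up to 4 genes per list, by smallest p in adipocyte lists and highest mean in the others, and the genes most alike by Pearson's r. The number of arrays limits the precision. Alternatives were other normalizations, filters, variance models, covariates, the replicate block, the methods' test and leaving out arrays.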

Additional observations from a re-analysis of the deposited data

How the results depend on the processing

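None of the adipocyte genes passed limma's adjusted p of 0.05 in any comparison of groups or in the moderated F test, under the settings run: other normalizations, the dimmest 33.3% of genes left out (which left 5 of the 9 genes), a trend, weights per array, a fit on the compared arrays alone, the replicate block, the mean of probe sets, muscle covariates, the methods' test, and each array left out. Of 528 values of single genes under these settings, 496 kept their direction, and the smallest adjusted p was 0.112. Many of these values could not change direction, so the 496 are no sign of stability. For these genes the trend, the fit on the compared arrays, the replicate block and the mean of probe sets leave differences of means as they were. The same holds for leaving out dim genes or an array of the group not compared. Unadjusted, the 2 genes for model against control became 0 without C1, C2, C3, M1 or M2, without M1, M2 and H2 together, with the dimmest genes left out, on the compared arrays alone, with either muscle covariate and by the methods' test, 1 without H1 and 8 without M3. Of all genes, 4.92% passed in the reported fit, 1.47% to 5.14% under the limma settings with 0, 4.63% without H1 and 9.67% without M3. For HPYD against model the count of 0 became 8 without M3, 2 with arrays shifted to one median, 1 with quantile normalization and 1 with the replicate block, where 4.14%, 2.08%, 2.15% and 1.68% of all genes passed, against 1.97%. Same-numbered arrays deviated together in 2 of 9 pairs (r over 0.1), so the numbers do not pair the samples. Arrays of different number did so more, at r = 0.588 for M1 with H2, 0.588 for M2 with H3 and 0.59 for M3 with H1. In this balanced design the replicate block cannot alter differences of means, so its medians of 0.80, -0.66 and 0.16 are no sign of stability.

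Without M1, M2 and H2 the median turned to -0.052 in the first comparison (model against control) and 0.092 in the second (HPYD against model). The single genes then turned to -0.17 (Cidea), -0.18 (Plin1), -0.089 (Cidec), -0.18 (Car3), -0.025 (Retn) and -0.052 (Lep) in the first, to 0.31, 0.25, 0.092 and 0.17 (Cidea, Plin1, Cidec and Car3) in the second, and to -0.13, -0.052, -0.030 and -0.012 (Ucp1, Adipoq, Fabp4 and Car3) for HPYD against control. With Ckm or the muscle list median as covariate, Retn was -0.066 and -0.12 and Lep -0.011 and -0.0021 for model against control, and Car3 0.68 and 0.59 for HPYD against model. Lep was also -0.038 with arrays shifted to one median and -0.044 with array weights, which gave -0.00020 for HPYD against control.

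Leaving out 1 array, the medians ranged from 0.48 to 1.25, from -1.10 to -0.35 and from -0.012 to 0.23 in the 3 comparisons. Lep ranged from -0.090 to 0.075, from -0.0014 to 0.17 and from -0.014 to 0.18, and for HPYD against control Ucp1 ranged from -0.13 to 0.48, Adipoq from -0.052 to 0.34, Fabp4 from -0.030 to 0.66, Car3 from -0.012 to 2.14 and Retn from -0.17 to 0.0057. Ucp1, Adipoq, Fabp4 and Car3 turned below 0 without H2. The cause was not tested in any of these cases. With no detection calls, how far background limits Adipoq, Fabp4 and Lep, the genes of lowest control signal, is unknown.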

Other observations

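Plin4, a perilipin of small lipid droplets in fat and muscle, had another pattern than the adipocyte genes. It was named after its values were seen. The control arrays had signals (log2) of 7.35, 7.39 and 6.92, the model arrays 7.42, 7.60 and 7.33, and the HPYD arrays 7.96, 8.07 and 7.61. All 3 HPYD arrays lay above all other arrays, H3 by only 0.015, and as the gene was picked for this separation, no permutation test of it is given. The log2 fold change was 0.66 (standard error 0.16) for HPYD against control and 0.43 (standard error 0.16) for HPYD against model, with limma's adjusted p of 0.860 and 1. Without H3, the array that went against its label, the values were 0.79 and 0.56 (standard error 0.15 for each), with limma's adjusted p of 0.596 and 1, an alternative chosen after seeing the data. M1 and M2, in which Ucp1 was 9.17 and 6.12, did not stand out for Plin4.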
